A study of Sus scrofa with 20 samples.

Results

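TMSB10, ANXA1, S100A10 and EMP3 are 4 genes whose products sit at or near the actin cytoskeleton and the plasma membrane, and they were examined in the kidneys of pigs after neurologic death (ND). The members were all probe sets that the array annotation names with 1 of these 4 symbols: 5 probe sets, for 4 of the 6765 genes with a single symbol on the array. The genes were chosen on their measured difference between ND and control kidneys in these same arrays. Their difference between groups is therefore given as a description without a p-value, and the count of members past the threshold of the array-wide fit is printed only beside its background. Tests are reported on how the genes varied among animals of 1 group and on genes that were not members. The lists of those other genes were also chosen with earlier results of these data known, so their p-values and counts are not free of that choice.

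Each of 20 pigs gave 1 kidney RNA sample and 1 Affymetrix porcine array, read in 1 colour. The 10 control animals had a burr hole, catheters and anesthesia. The 10 ND animals had the same procedures and, in addition, a subdural balloon catheter that was inflated until ND was established. Both groups were mechanically ventilated for 6 h after randomization, with boluses of 2 cc/kg of 0.9% NaCl as needed to keep the mean arterial pressure above 35 mmHg, so both carry the effects of anesthesia, ventilation and surgery. The labels give no strain, sex, age or drug name, and they describe 2 kidney specimens per animal but list 1 array per animal. Animals are named by group and number, as in ND_47.

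TMSB10 encodes thymosin beta 10, a small peptide that binds actin monomers and keeps them out of filaments. ANXA1 encodes annexin A1, which binds membrane phospholipid when calcium rises and, once released, acts through formyl peptide receptors to limit leukocyte recruitment. S100A10 encodes the partner of annexin A2 in a membrane complex that binds plasminogen and tethers channels and receptors to the cell cortex. EMP3 encodes a membrane glycoprotein with several membrane-spanning segments, of the epithelial membrane protein family. In kidney, transcripts of this kind are known from epithelium that has lost its differentiated state, but TMSB10, ANXA1 and EMP3 are also abundant in leukocytes, endothelium and stroma.

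The values are the deposited signals on a log2 scale, so that a difference of 1 is a 2-fold difference in signal. Values of different probe sets are not comparable with each other, and only values of the same probe set were set side by side. All 5 member probe sets lay above the background of 2.79 (the highest of the control probe sets that match no pig RNA) on all 20 arrays. Of the 5, 4 were higher in ND at an adjusted p under 0.05 and 0 were lower, where 3.8% of the 23999 probe sets tested were higher. In 1 of the 5, every ND animal lay above every control animal, where 0.192% of all probe sets showed this. Since these differences chose the genes, nothing is read from either count. The first count was 0 of 5 with a term for animal number, which was unbalanced between the groups, in the fit, 0 of 5 among the animals from Control_184 upwards and 3 of 5 without ND_47 and ND_92, where S100A10 was the one lost. S100A10 was also lost when any 1 of 12 animals was left out (ND_01, ND_22, ND_47, ND_92, ND_100, ND_194, Control_155, Control_156, Control_184, Control_190, Control_197 or Control_199), and ANXA1 without ND_92, Control_184 or Control_190.

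**Figure D1:**
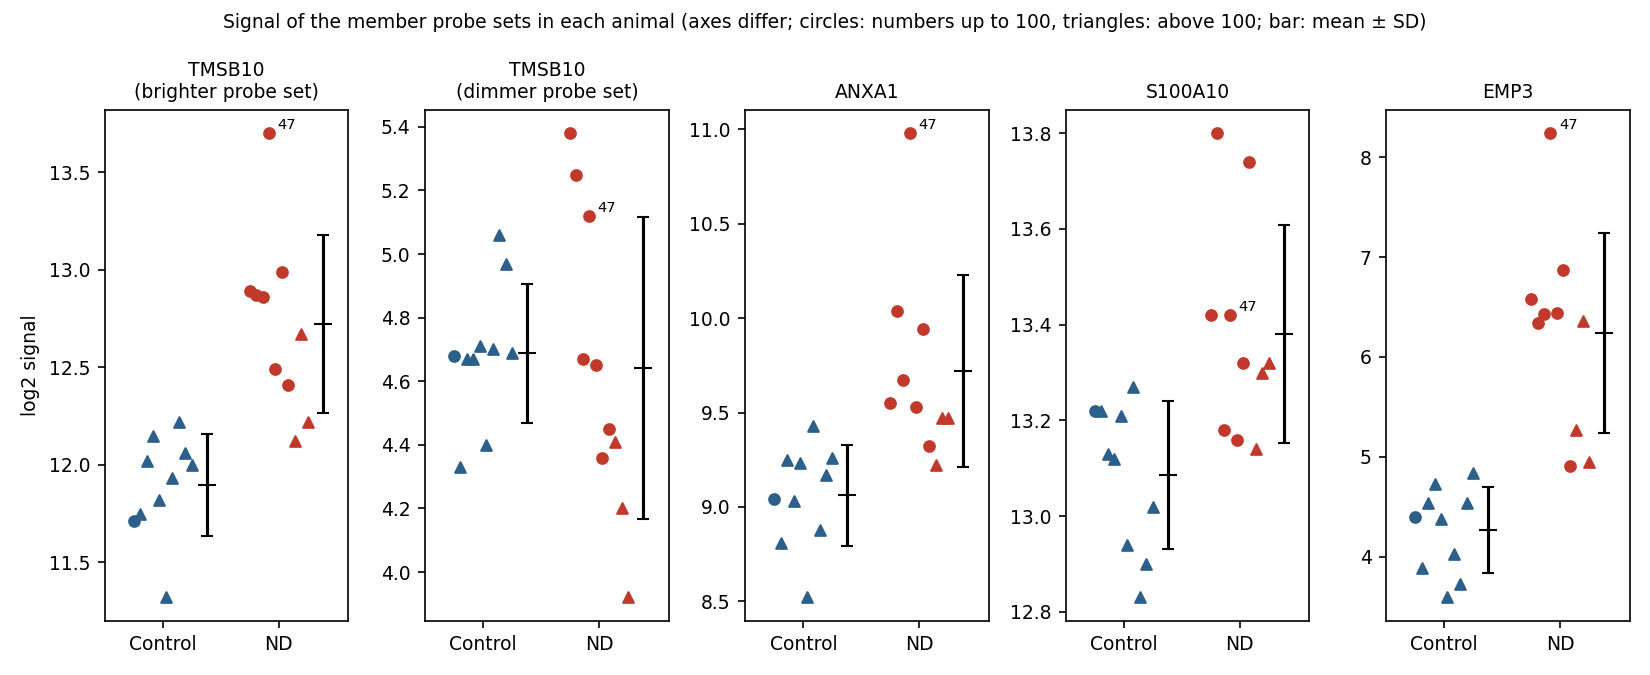
Log2 signal of the 5 member probe sets in each animal, controls in blue and ND in red, with the vertical axis scaled separately for each probe set. Circles are animals numbered up to 100, triangles those above 100, and the black bar is the mean ± SD of 10 animals. EMP3 is the probe set whose groups do not overlap (lowest ND animal 4.91, highest control 4.84), and ND_47 is the highest ND animal for the brighter TMSB10 probe set, ANXA1 and EMP3.

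TMSB10, the actin monomer-binding peptide, was measured by 2 probe sets. The brighter one read 12.12, 12.22, 12.41, 12.49, 12.67, 12.86, 12.87, 12.89, 12.99 and 13.70 in the 10 ND kidneys. In the 10 controls it ran from 11.32 through a median of 11.97 to 12.22. Of the ND animals, 8 lay above the highest control, and ND_193 and ND_198 lay within the control range. The means were 12.72 ± 0.46 in ND and 11.90 ± 0.26 in controls (SD, n = 10 each), a difference of 0.82 ± 0.16 (SE), or 1.77-fold.

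The dimmer TMSB10 probe set did not show this difference. It averaged 4.64 ± 0.48 in ND and 4.69 ± 0.22 in controls (SD, n = 10 each), a difference of -0.05 ± 0.16 (SE). Its ND values ran from 3.92 through a median of 4.55 to 5.38 and spanned the whole control range of 4.33 to 5.06. The 2 probe sets correlated at r = 0.61 among the ND animals (permutation p = 0.0555; rho = 0.54, permutation p = 0.115) and at r = 0.74 among the controls (permutation p = 0.0142, adjusted over the 2 groups 0.0283; rho = 0.54, permutation p = 0.114). Without the 2 animals farthest from the median of the brighter probe set, r was 0.60 in ND and 0.76 in controls. The statements on TMSB10 between groups thus rest on 1 of its 2 probe sets, and the one that is used below is the brighter.

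ANXA1, the calcium-dependent phospholipid-binding protein, read 9.22, 9.32, 9.47, 9.47, 9.53, 9.55, 9.67, 9.94, 10.04 and 10.98 in ND kidneys. In controls it ran from 8.52 through a median of 9.11 to 9.43. Again 8 of the 10 ND animals exceeded the highest control, with ND_193 and ND_100 inside the control range. The means were 9.72 ± 0.51 and 9.06 ± 0.27 (SD, n = 10 each), a difference of 0.66 ± 0.18 (SE), or 1.58-fold. ND_47 lay 0.94 above the next ND animal, and without it the SD in ND was 0.27, close to that of the controls.

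S100A10, the annexin A2 partner, had the smallest difference of the 4 genes. Its ND values were 13.14, 13.16, 13.18, 13.30, 13.32, 13.32, 13.42, 13.42, 13.74 and 13.80. Its control values ran from 12.83 through a median of 13.12 to 13.27. The groups overlapped, with 7 ND animals above the highest control, and the highest ND animals were ND_22 and ND_100 instead of ND_47. The means were 13.38 ± 0.23 and 13.09 ± 0.16 (SD, n = 10 each), a difference of 0.29 ± 0.09 (SE), or 1.23-fold.

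EMP3, the membrane glycoprotein, had the largest difference. Its ND values were 4.91, 4.95, 5.27, 6.34, 6.36, 6.43, 6.44, 6.58, 6.87 and 8.24. Its control values ran from 3.59 through a median of 4.39 to 4.84. The groups did not overlap, but the gap between the lowest ND animal and the highest control was 0.07, and ND_100, ND_193 and ND_198 lay close to the controls while 6 animals lay between 6.34 and 6.87. The means were 6.24 ± 1.0 and 4.27 ± 0.43 (SD, n = 10 each), a difference of 1.97 ± 0.33 (SE), or 3.93-fold. Among the 6765 genes this rise ranked 9, against ranks of 196 for TMSB10, 310 for ANXA1 and 1074 for S100A10.

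The spread among animals was larger in ND than in controls for each of the 5 probe sets, with ratios of the SDs between 1.46 for S100A10 and 2.31 for EMP3. ND_47 contributed to this for 3 genes: it lay above the next ND animal by 0.71 for TMSB10 and by 1.37 for EMP3. For TMSB10 the SD in ND was 0.32 without it, and for EMP3 0.75. For S100A10, where ND_47 lay 0.38 below the highest ND animal, leaving it out changed the SD from 0.23 to 0.24.

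The animal numbers were not balanced between the groups: 7 ND animals and 1 control carried a number up to 100, and 3 ND animals and 5 controls carried the number of Control_184 or a higher one. The labels do not say what the numbers stand for. Among the animals from Control_184 upwards the difference was 0.43 ± 0.22 for TMSB10, 0.34 ± 0.21 for ANXA1, 0.26 ± 0.10 for S100A10 and 1.38 ± 0.41 for EMP3 (SE, 3 ND against 5 controls). The sign was the one seen over all animals, and TMSB10 and ANXA1 had the smaller sizes relative to it. With a term for a number up to 100 in the fit, the differences were 0.63 ± 0.20, 0.46 ± 0.22, 0.19 ± 0.10 and 1.52 ± 0.40 in the same order. The dimmer TMSB10 probe set read 0.59 lower in ND among the animals from Control_184 upwards (-0.59 ± 0.17, SE).

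**Figure D2:**
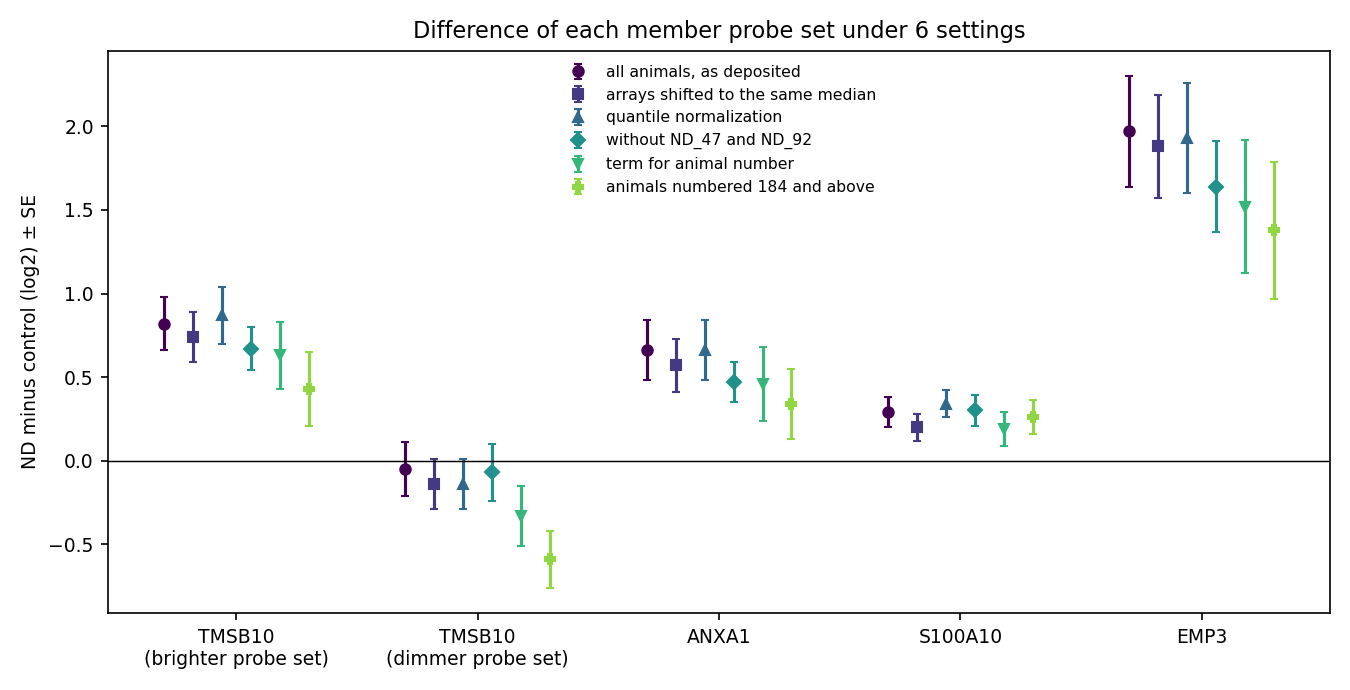
Difference between ND and control (log2, ± SE of the fit) for the 5 member probe sets under 6 settings. TMSB10 by its brighter probe set, ANXA1, S100A10 and EMP3 lie above 0 under each, while EMP3 ranges from 1.38 to 1.97 and the dimmer TMSB10 probe set from -0.59 to -0.05.

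Whether the genes varied together was asked among animals of 1 group, which does not use the difference between groups. Among the 10 ND kidneys TMSB10, ANXA1 and EMP3 rose and fell together from animal to animal, and S100A10 did not follow them. TMSB10 and EMP3 correlated at r = 0.93 (permutation p = 0.00038, adjusted over 6 pairs 0.00114; rho = 0.84, permutation p = 0.00339, adjusted 0.0102). TMSB10 and ANXA1 correlated at r = 0.91 (permutation p = 0.00022, adjusted 0.00114; rho = 0.92, permutation p = 0.0006, adjusted 0.0036). ANXA1 and EMP3 correlated at r = 0.85 (permutation p = 0.00121, adjusted 0.00242; rho = 0.75, permutation p = 0.0177, adjusted 0.0355). Without the 2 animals farthest from the median of the first gene, r was 0.85, 0.72 and 0.76 for these 3 pairs, and the animals left out were ND_47 with ND_193 or, for ANXA1 and EMP3, ND_47 with ND_22.

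The pairs with S100A10 gave r = 0.19 with TMSB10 (permutation p = 0.585, adjusted 0.702), 0.22 with ANXA1 (permutation p = 0.539, adjusted 0.702) and -0.08 with EMP3 (permutation p = 0.829, adjusted 0.829). Their rank correlations were 0.48 (permutation p = 0.165, adjusted 0.248), 0.42 (permutation p = 0.232, adjusted 0.279) and -0.01 (permutation p = 1, adjusted 1). Without the 2 farthest animals r was 0.02, -0.16 and 0.21. The animals that set S100A10 apart can be named: ND_100 ranked second of the 10 for S100A10 but 8 for TMSB10, 9 for ANXA1 and 10 for EMP3. ND_22 ranked first for S100A10 and second for ANXA1, but 7 for EMP3. ND_47 ranked first for TMSB10, ANXA1 and EMP3, but 4 for S100A10. In ND_193, by contrast, S100A10 went with the other genes: this animal was the lowest of the 10 for TMSB10, ANXA1 and S100A10 and ranked 8 for EMP3.

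**Figure D3:**
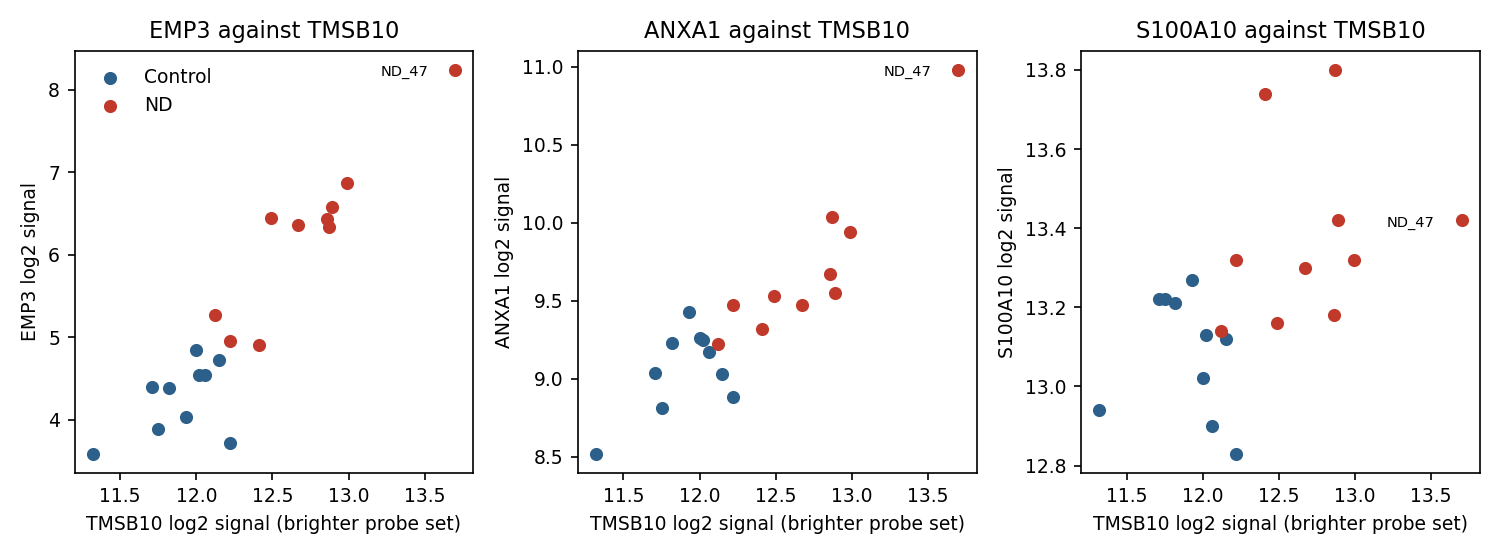
EMP3, ANXA1 and S100A10 (vertical axes, log2 signal) against TMSB10 (horizontal axis, log2 signal of the brighter probe set), with 1 point per animal, controls in blue and ND in red. Among ND animals EMP3 and ANXA1 climb with TMSB10 (r = 0.93 and 0.91) and ND_47 is the extreme point of both panels, while S100A10 does not (r = 0.19).

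ND_47 and ND_92 were the highest ND animals for TMSB10 and EMP3. Without ND_47 the pair of ANXA1 and EMP3 gave r = 0.68 and no longer passed (permutation test, adjusted p = 0.0967). Without both animals r was 0.74 for TMSB10 and ANXA1, 0.83 for TMSB10 and EMP3 and 0.59 for ANXA1 and EMP3, with adjusted p-values of 0.0754, 0.0754 and 0.235 over 8 animals (exact permutation test). Within the 7 ND animals numbered up to 100 the 3 pairs gave 0.94, 0.91 and 0.87, in the order TMSB10 with ANXA1, TMSB10 with EMP3 and ANXA1 with EMP3, and each passed. ND_47 and ND_92 are both among these 7, so this subset does not address their influence.

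Among the 10 controls 0 of the 6 pairs passed the permutation test, by r or by rho (1 and 0 at an unadjusted p under 0.05). The pair nearest to the threshold was ANXA1 and EMP3 (r = 0.65, permutation p = 0.0415, adjusted 0.249; rho = 0.58, permutation p = 0.0886, adjusted 0.402). TMSB10 gave r = 0.56 with ANXA1 (permutation p = 0.093, adjusted 0.279; rho = 0.20, permutation p = 0.585) and 0.47 with EMP3 (permutation p = 0.167, adjusted 0.334; rho = 0.39, permutation p = 0.263). Without Control_184, which was the lowest control for TMSB10, ANXA1 and EMP3, and Control_02, the r of TMSB10 with ANXA1 fell to -0.08 and that with EMP3 to 0.14. Leaving out 1 control could also raise r: without Control_187 ANXA1 and EMP3 reached r = 0.86 (permutation test, adjusted p = 0.014), and without Control_190 TMSB10 and EMP3 reached r = 0.82 (permutation test, adjusted p = 0.0332). The pairs with S100A10 gave -0.19, 0.41 and 0.19 with TMSB10, ANXA1 and EMP3. Whether r differed between ND and controls was not tested.

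As a background, each member was correlated with the 5652 other genes whose mean in ND lay above background. Among the ND animals the median r with TMSB10 was 0.10, and 4.26% of genes had an r above 0.8 with it. EMP3 stood near the top of that order, since 9 genes (0.159%) had a higher r with TMSB10, and 18 (0.318%) had a higher r than ANXA1. For S100A10, 44.6% of genes had a higher r with TMSB10. Among controls 0.177% of the same genes had an r above 0.8 with TMSB10. The genes were chosen by their ND mean and the ND arrays include ND_47, so the ND and control shares are not like for like. Genes are not independent replicates, and the points are the same 10 arrays throughout, so these shares are descriptions.

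The genes most like the members were ranked by the mean of their r with the 4 members over the 10 ND arrays. The 6 highest were CASP8, an initiator caspase (0.77), FYN, a Src family kinase (0.76), SEC11A, a signal peptidase subunit (0.76), SMYD5, a SET domain protein (0.76), DET1, a ubiquitin ligase component (0.76) and GLTP, a glycolipid transfer protein (0.76). Over the 10 control arrays their mean r was 0.14, 0.57, 0.31, 0.28, -0.03 and 0.48. Of these 6, FYN was higher in ND (0.92 ± 0.21, SE; limma adjusted p = 0.0121), and the other 5 did not pass, with differences between 0.01 for SEC11A and 0.85 for CASP8 (adjusted p = 0.0556). With S100A10 alone the r of these 6 lay between 0.27 and 0.47, and with each of the other 3 members between 0.76 and 0.97. A gene could thus follow TMSB10, ANXA1 and EMP3 among ND animals with hardly any difference between group means, as SEC11A and GLTP (0.05) did. The 6 were picked as the highest over arrays that include ND_47, and their r without ND_47 was not examined. SMYD5 lay near the background limit of 2.79, with means of 3.13 in ND and 3.02 in controls.

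The closest companions were also listed for each member alone. These genes lie outside the naming rule and were picked once their values were known. Each has 1 of the highest r of all genes examined, over ND arrays that include ND_47. Their rank correlations and their r without ND_47 were not examined. TMSB10 was closest to SRGN, a proteoglycan core protein of secretory granules (r = 0.99 over 10 ND arrays, 0.20 over 10 controls). EMP3 was closest to DNAJC14 (0.95), followed by the matrix genes FN1 and COL6A3 (0.94 each), which gave 0.40 and 0.57 with EMP3 in controls. ANXA1 was closest to PPP1R3B (0.97), ABCB1 and ERH (0.96 each). PPP1R3B lay near the background limit of 2.79, with means of 2.90 in ND and 2.39 in controls. S100A10 had other companions, the membrane skeleton gene EPB41 (0.93), DLST (0.91) and FUNDC2 (0.90), whose r with TMSB10 lay between -0.07 and 0.01. EPB41 was also close to S100A10 in controls (0.80), while DLST and FUNDC2 were not (0.21 and -0.18). Between groups these genes differed in the opposite direction to S100A10. The ND minus control difference was -0.29 ± 0.09 for EPB41 (SE, limma adjusted p = 0.0537), -0.26 ± 0.09 for DLST (adjusted p = 0.0717) and -0.42 ± 0.07 for FUNDC2 (adjusted p = 0.000733).

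The relatives of the members were described from lists, with each gene represented by its brightest probe set and the members left out of the counts. Over all 6765 genes 5.44% were higher and 4.55% lower in ND, with a median difference of -0.02. At an unadjusted p under 0.05 by limma, 969 of the 6765 were higher and 1064 lower. With the term for animal number these were 567 and 662, and among animals from Control_184 upwards 547 and 655. After each array was shifted to the same median, 1061 of the 23999 probe sets were higher and 7728 lower (adjusted p under 0.05). The list counts below are to be read beside these backgrounds. In the annexin family, calcium-dependent membrane-binding proteins, 4 genes were measured and 0 passed (limma, adjusted p under 0.05; 0 at an unadjusted p under 0.05), with a median difference of 0.03 that turned to -0.06 when each array was shifted to the same median. ANXA2, the partner of S100A10, read 10.24 ± 1.15 in ND and 9.70 ± 0.36 in controls (SD, n = 10 each; difference 0.53 ± 0.37, SE, adjusted p = 0.314), and 6 of 10 ND animals lay above the control mean. ANXA5 differed by 0.07 ± 0.20 (SE; adjusted p = 0.825), ANXA4 by 0.00 ± 0.10 and ANXA11 by -0.02 ± 0.08.

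In the S100 family of small calcium-binding proteins, 9 genes were measured, 1 was higher, 0 were lower (2 and 1 at an unadjusted p under 0.05 by limma) and the median difference was -0.02. The one that rose was S100A4, a regulator of non-muscle myosin that is abundant in fibroblasts and leukocytes, from 4.61 ± 0.35 to 6.01 ± 0.87 (SD, n = 10 each; difference 1.39 ± 0.29, SE, limma adjusted p = 0.00631), with 10 of 10 ND animals above the control mean. With a term for animal number its difference was 0.83 and did not pass (adjusted p = 0.195). S100A11, which lies beside S100A10 in the RefSeq gene order, was 0.39 ± 0.18 higher (SE, adjusted p = 0.166) and above the control mean in 9 of 10 ND animals. S100A8 and S100A12, made by neutrophils, were at background on all 20 arrays. Of the other genes flanking the members, TCF7L1 near TMSB10 rose by 0.63 ± 0.16 (SE; limma adjusted p = 0.0198), ALDH1A1 beside ANXA1 differed by -0.14 ± 0.12 (adjusted p = 0.396), and the rest were not analysed here.

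Of actin and its binding proteins 50 genes were measured, of which 9 were higher, 1 was lower and 40 did not pass, with a median difference of 0.16 (limma, adjusted p under 0.05). The median was 0.08 without ND_47, 0.06 without ND_47 and ND_92 and -0.04 among animals from Control_184 upwards. After each array was shifted to the same median, 10 genes of this list were higher and 4 lower, against 1 and 3 of the S100 family. The genes that rose were EZR, which links membrane to actin (0.53 ± 0.09, SE, adjusted p = 0.00193), LIMA1, which stabilizes filaments (0.78 ± 0.14, adjusted p = 0.00258), ARPC5, a subunit of the Arp2/3 complex (0.34 ± 0.06, adjusted p = 0.0037), and LCP1, an actin bundler of leukocytes, CORO1A, ACTR3, ARPC1B, CAPG and TPM3. LCP1 and CORO1A stand in the leukocyte marker list as well. DSTN, which severs filaments, was lower (-0.47 ± 0.09, SE, adjusted p = 0.00409), with 10 of 10 ND animals below the control mean. Its dimmer probe set did not pass (-0.35 ± 0.20, SE, limma adjusted p = 0.235). ACTB, the main cytoplasmic actin, read 13.20 ± 0.22 and 13.28 ± 0.17 (SD, n = 10 each; difference -0.08 ± 0.09, SE, adjusted p = 0.54), but its dimmer probe set was lower (-0.53 ± 0.13, SE, adjusted p = 0.0195). VIL1, of the brush border core, differed by -0.38 ± 0.14 (SE, adjusted p = 0.0988). With the term for animal number EZR and LIMA1 stayed past the threshold as higher and DSTN as lower, and the other 7 did not pass (9 higher and 2 lower at an unadjusted p under 0.05). Among animals from Control_184 upwards 0 passed (2 higher and 2 lower at an unadjusted p under 0.05), and ACTR3 also lost its call without ND_92 or without Control_184 (adjusted p up to 0.0506).

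**Figure D4:**
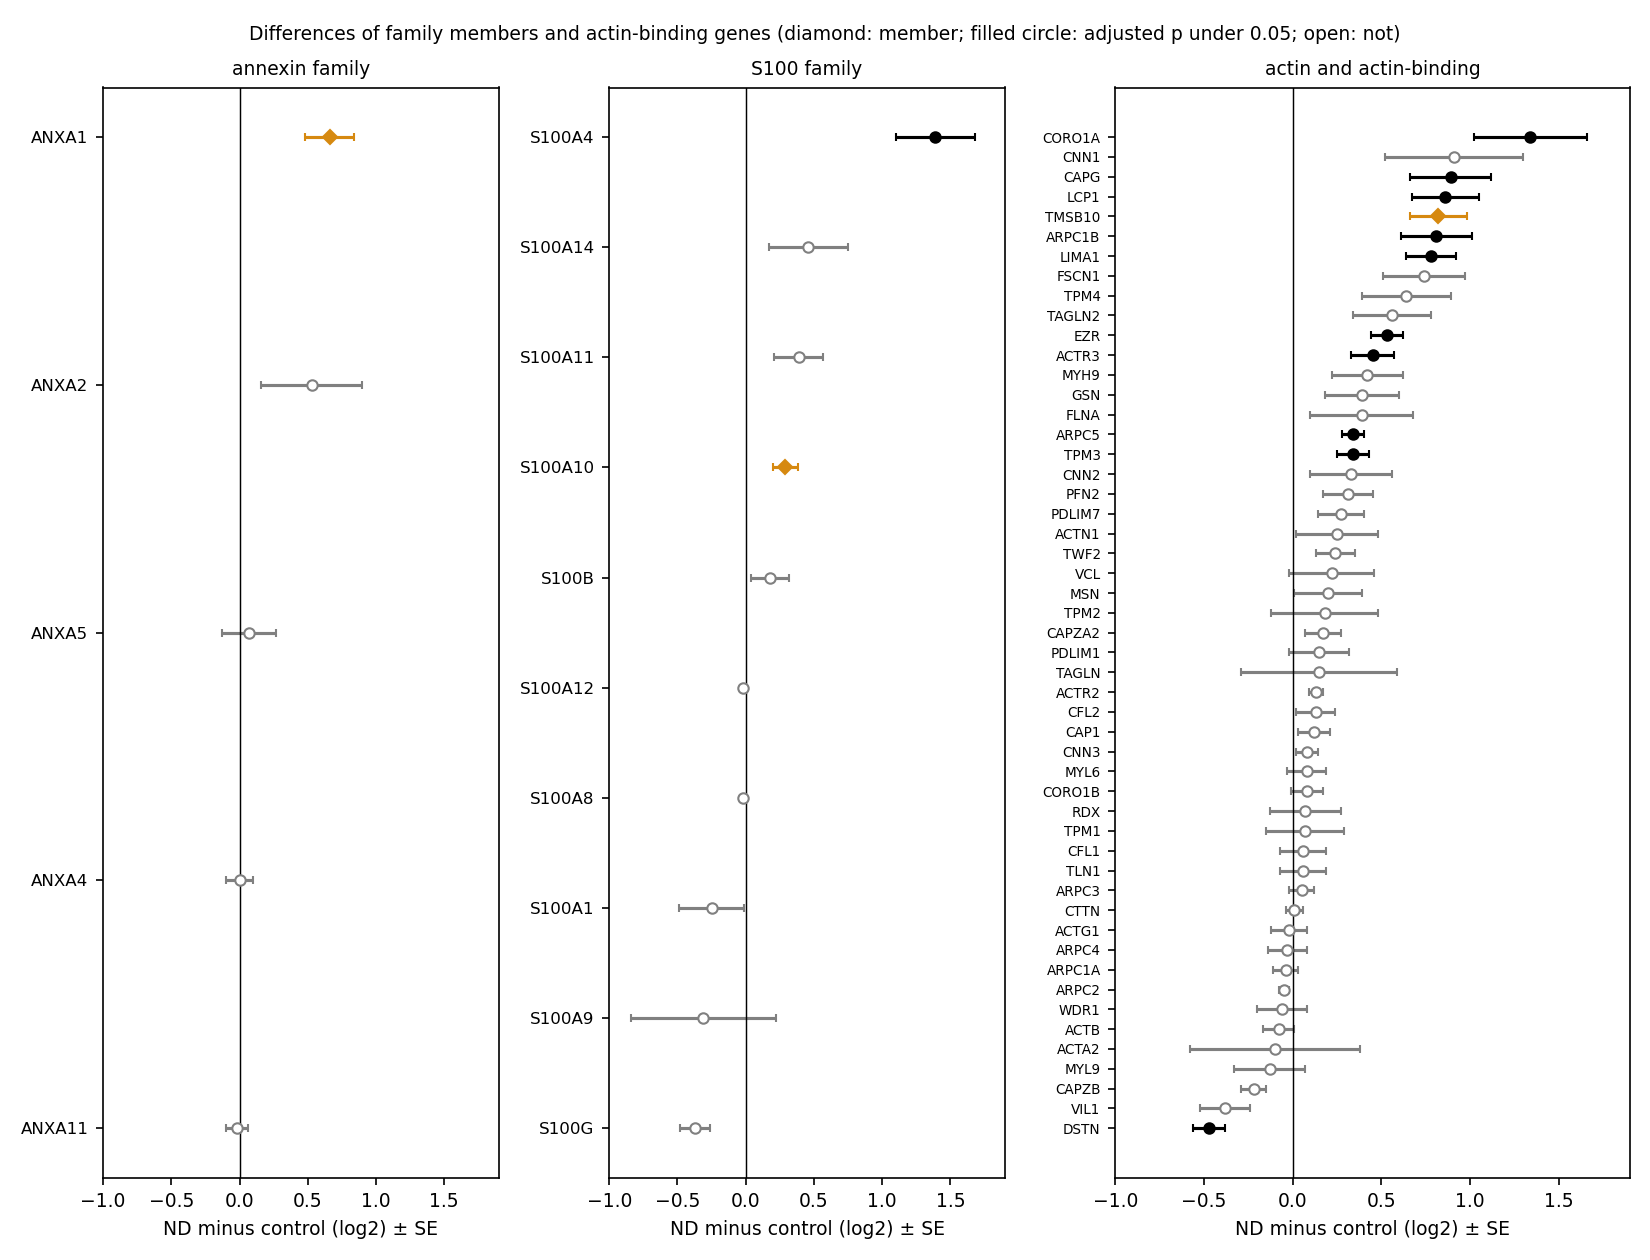
Difference between ND and control (log2, ± SE) for the measured genes of the annexin family, the S100 family and the actin-binding list, with ANXA1, S100A10 and TMSB10 as orange diamonds, genes past an adjusted p of 0.05 as filled circles and the others as open circles. S100A4 (1.39) stands apart from the other S100 genes, and 0 of the 4 other annexins passed (0 at an unadjusted p under 0.05). S100A8 and S100A12 plot near 0 because both lay at background on all arrays.

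Tubulin and intermediate filament genes held 14 measured members, of which 2 were higher and 0 lower (7 and 1 at an unadjusted p under 0.05 by limma), with a median difference of 0.32. They were STMN1, which destabilizes microtubules (1.42 ± 0.30, SE, limma adjusted p = 0.007), and the lamin LMNB1 (0.62 ± 0.14, adjusted p = 0.00978). VIM, the intermediate filament of mesenchyme and of injured tubules, lay above the control mean in 10 of 10 ND animals, with a difference of 0.36 ± 0.14 that did not pass (SE, adjusted p = 0.102). The simple epithelial keratins KRT8 and KRT18 differed by 0.90 ± 0.34 (adjusted p = 0.11) and 0.96 ± 0.61 (adjusted p = 0.276). After each array was shifted to the same median 3 were higher and 1 lower. With the term for animal number 0 genes of this list passed by limma (2 higher and 0 lower at an unadjusted p under 0.05).

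The 4 genes had been grouped as markers of tubular injury, and that name was checked against a list of tubular injury and repair genes. Of 23 measured, 1 was higher and 0 lower (8 and 0 at an unadjusted p under 0.05 by limma), with a median difference of 0.50 and 20 of the 23 differences above 0. After each array was shifted to the same median 3 were higher and 1 lower. Without ND_47 the median difference was 0.26, and among the animals from Control_184 upwards it was 0.01. The gene that rose was VCAM1, an adhesion molecule of endothelium and of injured tubules (1.70 ± 0.31, SE, limma adjusted p = 0.00275), and with the term for animal number it gave 1.58 (adjusted p = 0.0502). CLU differed by 0.50 ± 0.39 (SE, adjusted p = 0.372) and SPP1 by 0.04 ± 0.27 (SE, adjusted p = 0.923). HAVCR1 and LCN2, the most used injury markers, were not analysed here, so the 4 genes are called by their symbols.

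Markers of the cell types a kidney sample could hold were counted in the same way. In whole tissue, fewer cells of a type and less RNA per cell cannot be told apart. Of 26 leukocyte markers, 10 were higher, 3 lower and 13 did not pass, with a median difference of 0.69 (0.45 without ND_47 and ND_92, and 0.16 among animals from Control_184 upwards). GNLY of cytotoxic cells rose by 1.49 ± 0.25 (SE, limma adjusted p = 0.00145), the protease gene CTSS by 0.85 ± 0.16 (adjusted p = 0.00259) and LAPTM5 by 1.11 ± 0.21 (adjusted p = 0.00375), whereas CD163, a receptor of resident macrophages, was lower (-2.04 ± 0.36, adjusted p = 0.00194). The other 2 that were lower, CD14 and MRC1, were named for their count: CD14 lost its call when any 1 of 12 animals was left out (adjusted p up to 0.082) and MRC1 with any 1 of 10 (adjusted p up to 0.0671), so that 1 to 3 markers were lower over the 20 such fits. After each array was shifted to the same median 13 were higher and 7 lower, counted over all 26 genes, those at background included. PTPRC, the common leukocyte antigen, differed by 0.10 ± 0.10 (adjusted p = 0.482), and ITGAM, CD79B, S100A8 and S100A12 were at background on all arrays. Of 12 proximal tubule markers 0 were higher and 5 lower (0 and 6 at an unadjusted p under 0.05 by limma), with a median difference of -0.39. The median was -0.25 without ND_47, -0.11 without ND_47 and ND_92 (1 higher and 3 lower) and -0.06 among animals from Control_184 upwards. The transporters SLC2A2 and SLC7A9, the factor HNF4A and the gluconeogenic PCK1 fell by 1.82, 1.13, 0.84 and 0.66 on the log2 scale (adjusted p 0.0104, 0.0206, 0.0174 and 0.0222). The dimmer HNF4A probe set differed by -0.84 ± 0.27 and did not pass (SE, limma adjusted p = 0.0677). Of 12 endothelial and 12 fibroblast and smooth muscle markers 1 each rose, CLDN5 (2.02 ± 0.39, SE, adjusted p = 0.0037) and PDGFRB (0.65 ± 0.18, adjusted p = 0.0361). Of 4 distal nephron markers 0 passed (0 higher and 3 lower at an unadjusted p under 0.05). After each array was shifted to the same median 4 of these 4 were lower, but 1 of them was at background on all arrays. PDGFRB lost its call (adjusted p up to 0.0661) when any 1 of Control_190, Control_184, Control_157, Control_134, Control_02, ND_92, ND_86, ND_22 or ND_01 was left out. With the term for animal number 0 leukocyte markers were higher and 2 lower (7 and 3 at an unadjusted p under 0.05 by limma), and 0 proximal tubule, endothelial or fibroblast markers passed (1, 2 and 1 higher and 5, 1 and 1 lower at an unadjusted p under 0.05).

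The mean level of each list on an array was then set against each member, within 1 group at a time, as 48 correlations adjusted together. The leukocyte level ran from 5.80 to 7.44 in ND and from 5.81 to 6.45 in controls. Among ND animals it correlated with TMSB10 at r = 0.90 (permutation p = 0.00018, adjusted 0.00648; rho = 0.89, permutation p = 0.00123, adjusted 0.0307) and with ANXA1 at r = 0.84 (permutation p = 0.00027, adjusted 0.00648; rho = 0.89, permutation p = 0.00128, adjusted 0.0307). It correlated with EMP3 at r = 0.81 (permutation p = 0.00422, adjusted 0.0253), where rho did not pass (0.60, permutation p = 0.0757, adjusted 0.214). With S100A10 it gave r = 0.37 (permutation p = 0.292, adjusted 0.438; rho = 0.59, permutation p = 0.0807). Without the 2 animals farthest from the median leukocyte level, r was 0.90, 0.76, 0.76 and 0.04 for TMSB10, ANXA1, EMP3 and S100A10.

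The proximal tubule level, which ran from 10.22 to 11.85 in ND and from 11.67 to 12.12 in controls, went the other way. It gave r = -0.85 with TMSB10 (permutation p = 0.00333, adjusted 0.0228; rho = -0.67, permutation p = 0.0395, adjusted 0.183), -0.92 with ANXA1 (permutation p = 0.00134, adjusted 0.0182; rho = -0.75, permutation p = 0.0178, adjusted 0.142) and -0.84 with EMP3 (permutation p = 0.00207, adjusted 0.0182; rho = -0.61, permutation p = 0.0675, adjusted 0.203). With S100A10 it gave -0.09 (permutation p = 0.805, adjusted 0.878). Without ND_47 and ND_92 these were -0.47, -0.66, -0.55 and -0.20. EMP3 also correlated with the fibroblast and smooth muscle level (r = 0.83, permutation p = 0.00227, adjusted 0.0182; rho = 0.84, permutation p = 0.00389, adjusted 0.0467), and r was 0.84 without ND_47 and ND_86, the farthest from the median of that level. It was 0.73 without ND_47 (permutation test, adjusted p = 0.164) and 0.66 without ND_47 and ND_92 (exact permutation test, adjusted p = 0.245), and neither passed.

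Counted over the ND animals, 14 of 24 correlations passed by r and 3 by rho, and among controls 4 and 1 did. Of the 6 lists, 0 passed with S100A10 (0 at an unadjusted permutation p under 0.05), and 4 to 5 passed with each of the other 3 genes, a contrast that was not tested. In controls 4 passed by r. TMSB10 did so with the actin level (0.77, permutation p = 0.0135, adjusted 0.0404) and EMP3 with the leukocyte level (0.78, permutation p = 0.0112, adjusted 0.0384). ANXA1 did so with the endothelial level (0.77, permutation p = 0.0081, adjusted 0.0355) and the injury level (0.79, permutation p = 0.00747, adjusted 0.0355). By rho, 1 passed, ANXA1 with the endothelial level (0.87, permutation p = 0.00227, adjusted 0.0363). The other rho were 0.56, 0.77 and 0.64 in the order given (permutation test, adjusted p = 0.239, 0.125 and 0.19). Without the animals farthest from the median of each list level, r was 0.27, 0.72, 0.64 and 0.36 in that order. Without ND_47, which had the highest leukocyte level (7.44) and the lowest proximal tubule level (10.22), 0 of the ND correlations passed. The control count also fell to 0, although no control array had changed, since both groups were adjusted together. In controls ANXA1 with the endothelial level kept r = 0.77 (permutation test, adjusted p = 0.0972 without ND_47). The ND count therefore does not measure the influence of ND_47 alone. Among the ND animals left, the r of TMSB10 with the leukocyte level was still 0.88 (permutation test, adjusted p = 0.0936). That of TMSB10 with the injury level fell from 0.77 to 0.36. The part of leukocytes, stroma or lost tubular transcripts in the differences of TMSB10, ANXA1 and EMP3 was not tested.

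**Figure D5:**
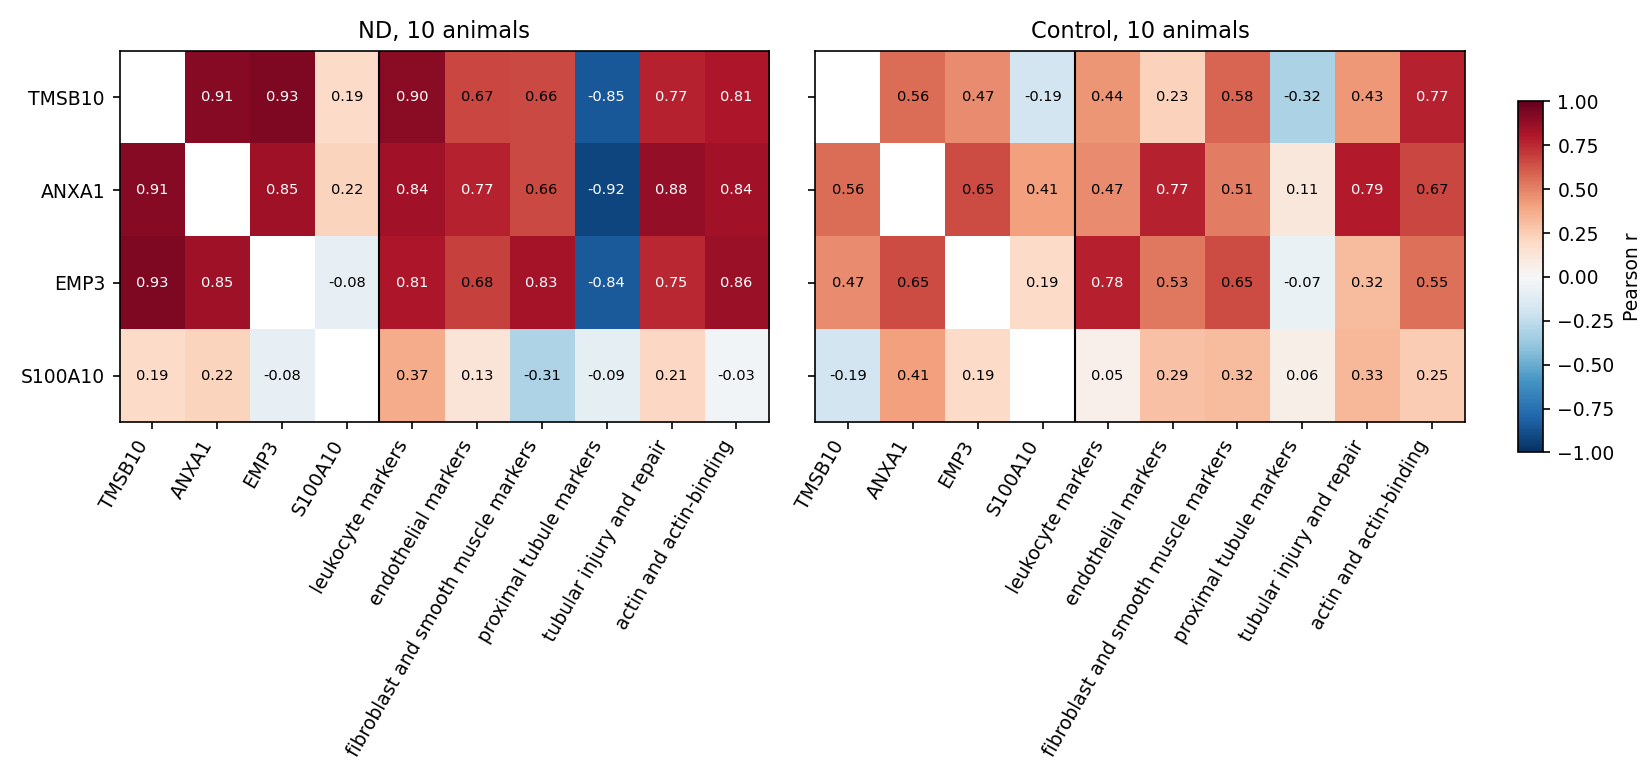
Pearson r of each member (rows) with the other members and with the mean level of 6 gene lists (columns, divided by a vertical line), over 10 ND animals on the left and 10 controls on the right. Red is positive and blue negative, on a scale from -1 to 1. In ND the rows of TMSB10, ANXA1 and EMP3 are positive with leukocytes (0.90, 0.84 and 0.81) and negative with the proximal tubule (-0.85, -0.92 and -0.84), and the row of S100A10 stays between -0.31 and 0.37.

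RNA quality was read as the difference between 3' and 5' control probe sets of 3 transcripts. The means were 4.01 in ND and 4.14 in controls for actin, 1.67 and 1.85 for GAPDH and 0.96 and 1.10 for EF1A, where a larger value means less signal from the 5' end. The arrays correlated with each other at 0.954 to 0.994 over all probe sets, and 0 pairs held identical values.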

How the data were processed

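Kidney RNA was isolated with TRIzol and 250 ng per sample were labelled with biotin, per the labels' protocols. The values deposited by the authors, 1 for each probe set on each array, were taken as log2 signals from their range (0.88 to 16.2). How they were background-corrected, summarized and normalized: not given in the sources used here. The number of animals limits the precision. Array medians ran from 5.09 to 5.35.

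The members and gene lists were chosen with earlier results of these data known. Of 24123 probe sets, 124 controls were left out. Gene names came from the platform annotation: 10069 probe sets had 1 symbol, 198 several and 13732 none, and no gene was named from those with several. Each of 6765 genes was represented by its brightest probe set over all arrays. ND was compared with control by limma 3.58.1 (lmFit, eBayes without trend) in R 4.3.3, with Benjamini-Hochberg adjustment over 23999 probe sets and a threshold of 0.05. Correlations used two-sided permutation tests (100000 resamples, exact for 8 animals or fewer). List levels are means over genes above background, without members.

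Genes were named by rule: the members, up to 4 called genes per list with the smallest p, 21 relatives and markers where measured, and the 6 genes most like the members. CORO1A, ACTR3, ARPC1B, CAPG, TPM3, LCP1, ANXA4, ANXA11, S100A8, S100A12, CD14, MRC1, ITGAM, CD79B, TCF7L1 and ALDH1A1 were named outside it. The fit and the permutation test were checked on made data with known answers. The alternatives were 2 other scalings, leaving out dim probe sets, averaging a gene's probe sets, a term for animal number, subsets of animals and leaving out each animal. The labels record no pairing of animals between the groups. The p-values measure the spread between animals.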

Additional observations from a re-analysis of the deposited data

Results flagged for a closer look

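Of 30 groups of values examined for 1 animal far from the others (the member probe sets and the list levels, in each group), 4 were marked, where chance marks about 1 in 20. ND_47 accounted for 3 of them. For ANXA1 it read 10.98, and the next ND animal read 10.04. Its level of the tubular injury and repair list was 11.06, against 9.66 for the next, and that of the tubulin and intermediate filament list was 9.61, against 8.64. These lists share VIM, KRT8 and KRT18 among others, so the marks on them are not independent. Among controls, Control_02 had the lowest level of the distal nephron and collecting duct markers, 9.27 against 9.68 for the next.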

How the results depend on the processing

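The differences of the 5 member probe sets kept their sign under the scaling and animal number alternatives, and leaving out 1 animal changed the sign of 1, the dimmer TMSB10 probe set, which ran from -0.13 to 0.03. Among animals from Control_184 upwards the brighter TMSB10 probe set gave 0.43 and the dimmer -0.59. Shifting each array to the same median moved the median difference of all probe sets from -0.03 to -0.12 and the probe sets lower in ND to 7728 and lower list genes to 25. Probe sets and list genes at background on all arrays were included in these counts. With the animal number term 179 probe sets were higher and 326 lower (2 and 4 list genes), and among animals from Control_184 upwards 19 and 38 (0 and 0 list genes, where fewer animals entered). Leaving out 1 animal gave 615 to 1244 lower probe sets.

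Without ND_47 and ND_92 the ND correlations were 0.74 (TMSB10 and ANXA1), 0.83 (TMSB10 and EMP3) and 0.59 (ANXA1 and EMP3) and none of these 3 passed, over 8 animals. The number of ND marker correlations that passed was 8 after the median shift, 0 without ND_47 and 0 without both. Without ND_47, and without both, the control number fell to 0 as well. No control array had changed, but both groups were adjusted together. Of pairs that did not pass, TMSB10 and S100A10 in ND turned to -0.09 after the median shift and -0.10 in the 7 animals up to 100, and ANXA1 and S100A10 to -0.00 after the median shift. Leaving out 1 animal gave 0.68 to 0.88 for ANXA1 and EMP3 and -0.23 to 0.25 for EMP3 and S100A10 in ND. In controls it gave 0.09 to 0.82 for TMSB10 and EMP3, -0.76 to 0.08 for TMSB10 and S100A10, 0.44 to 0.86 for ANXA1 and EMP3 and -0.09 to 0.32 for EMP3 and S100A10. Marker correlations that changed sign, none of which passed at first, were TMSB10 with endothelium in ND (-0.05 without ND_47 and ND_92), S100A10 in ND with endothelium (-0.01) and proximal tubule (0.10) after the median shift, and S100A10 in controls with leukocytes (-0.12 after the median shift, -0.07 with quantile normalization) and proximal tubule (-0.01 and -0.26). The cause was not tested. No paired analysis was possible because the labels record no pairing between the groups.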
